A study of Mus musculus with 15 samples.

Results

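The genes described here encode the subunits of the proteasome. They were taken as every row of the count table whose symbol is Psma, Psmb, Psmc or Psmd followed by a number, or Psme1 to Psme4, leaving out the immunoproteasome genes Psmb8 and Psmb9. This gave 39 of 17185 rows: 7 alpha and 8 beta subunits of the 20S core, 9 subunits of the base and 8 of the lid of the 19S cap, 3 assembly chaperones and 4 activators. Psmc3ip and Psme2b, 2 rows whose symbols only start alike, were not taken. The rule uses symbols and no measured value, although it was set with earlier results of these data known.

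The study compared the intestine of 2 control mice, whose diet drew 10% of its kcal from fat, with that of 3 mice on a high fat diet, in which fat gave 60% of kcal. All 5 mice were 6 months old and carried the Lgr5-eGFP-IRES-CreERT2 allele, in which the promoter of Lgr5, a gene of crypt base stem cells, drives green fluorescent protein and an inducible Cre recombinase. Single cells of 3 organs of each mouse, namely the proximal segment of the small intestine, its distal segment and the colon, were sequenced with Seq-Well, a method that traps cells in small wells, which gave 15 libraries and 18919 cells. The authors called 4618 of these cells (24.4%) stem, which in this table equals at least one molecule of Lgr5 or eGFP, so they are named stem-called cells. Counts were summed per library over stem-called cells and over all other cells, and a level is given as counts per 1000000 UMIs of the sum (CPM), where a unique molecular identifier (UMI) marks 1 captured RNA molecule.

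Depth and cell makeup differed between sums. The stem-called sums held 27 to 617 cells and 321496 to 13694552 UMIs, the smallest being the colon of high fat mouse 2. Over the cells of all mice, median UMIs per cell were 14523 in stem-called and 14344.5 in other cells of the proximal segment, 14373.5 and 12595 in the distal segment, and 11838 and 8870.5 in the colon. Within colon libraries the gap was wide in high fat mouse 1 (18430 and 4263.5) and high fat mouse 2 (10401 and 2588). It was narrow in control mouse 1 (5354 and 4746.5), control mouse 2 (19000 and 17311) and high fat mouse 3 (19644 and 19443.5). The summed level of 6 epithelial markers was 3742 to 8221 CPM in all 30 sums, and that of 9 stem cell markers without Lgr5 was higher in stem-called cells in each library. Between libraries, 16 of 18898 barcodes were shared. In a sum over cells, fewer cells of a type and less RNA per cell cannot be told apart.

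The proteasome degrades proteins that carry ubiquitin. The alpha rings of the 20S core gate the barrel, the beta rings hold the proteases, and the 19S cap binds, unfolds and feeds the substrate, with ATPases in its base and a deubiquitinase in its lid. Subunit genes are known to be induced together by NRF1 and, under oxidative stress, by NRF2, which bind antioxidant response elements, while interferon swaps the catalytic subunits for immunoproteasome forms. In the intestinal crypt, stem cells at the base divide and their daughters differentiate into absorptive and secretory cells.

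Promoter windows were searched because many of these genes moved in one direction with the stem call. RefSeq (build GRCm38.p6) gave a window from 250 bases before to 50 bases after the start for 33 of the 39 genes. Psmb1, Psmb2, Psmb7, Psmc3, Psmd3 and Psmd7 were not matched. The core of the antioxidant response element, TGACNNNGC, lay on either strand in 6 of the 33 (18.2%), namely Psmb5, Psmb6, Psmc6, Psmd9, Psmd12 and Psme4, against 14.0% of all gene windows. The 5 matches that lie before the start are shown with the matched letters in capitals, 5′ to 3′ on the strand of the gene.

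Psmb5, chr14:54618019-54618058, minus strand: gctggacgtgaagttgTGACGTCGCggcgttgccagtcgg
Psmb6, chr11:70525332-70525356, plus strand: ggcggactaaagagagTGACGGAGC
Psmc6, chr14:45329581-45329620, plus strand: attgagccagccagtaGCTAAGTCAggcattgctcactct
Psmd9, chr5:123228143-123228182, plus strand: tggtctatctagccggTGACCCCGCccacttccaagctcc
Psmd12, chr11:107479278-107479304, plus strand: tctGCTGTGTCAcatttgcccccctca

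In Psmc6 and Psmd12 the capitals are the reverse complement of the core. The looser form TGANNNNGC, which contains the core, lay in 18 windows (54.5% against 45.0% of all windows). The interferon-gamma activated site TTCNNNGAA lay in 1 window, that of Psmd2 (3.03% against 9.55%), and the same site with one more N between TTC and GAA in 1, that of Psmb10 (3.03% against 8.01%). The Psmb10 match and the match of the closer spacing in Psmb8, an immunoproteasome gene outside the set, are shown because both genes were higher in the colon. Psmb9, the other immunoproteasome gene outside the set, was higher there too, and neither form was found before its start. A link between these sites and the colon levels was not tested.

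Psmb10, chr8:105938435-105938475, minus strand: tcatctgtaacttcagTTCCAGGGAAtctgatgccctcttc
Psmb8, chr17:34198082-34198121, plus strand: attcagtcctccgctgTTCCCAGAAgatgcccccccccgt

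The interferon-stimulated response element, searched as GAAA, any NN and GAAA again, lay in 4 windows (12.1% against 3.99%), those of Psmb3, Psmd4, Psmd9 and Psme1. The CCAAT box lay in 12 (36.4% against 41.1%), the ETS core GGAAG in 30 (90.9% against 73.9%) and the AP-1 site TGAGTCA in 1, that of Psmd9 (3.03% against 5.95%). TGAGTCA and TGANNNNGC can share letters. A match describes these letters and says nothing of binding.

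All 39 genes were detected in the stem-called cells of each of the 15 libraries. In the proximal segment their summed level in stem-called cells was 5353 and 6457 CPM in control mice 1 and 2 and 5740, 5924 and 5839 CPM in high fat mice 1 to 3. In the distal segment it was 4962 and 6156 against 5727, 5193 and 6012 CPM, and in the colon 6222 and 6419 against 7103, 6050 and 6232 CPM. The high fat mice lay between the control mice in both parts of the small intestine, and the diets overlapped in all 3 organs. The summed level of the 19S genes divided by that of the 20S genes had a mean of 1.1 in both parts of the small intestine and 1.0 in the colon.

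**Figure D1:**
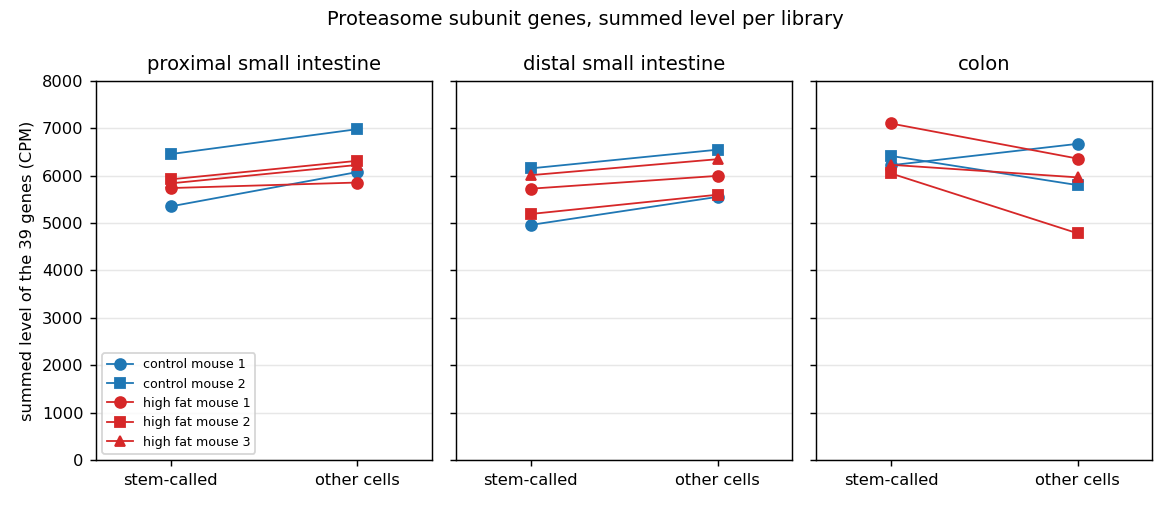
Summed level of the 39 genes in CPM (vertical axis) in stem-called and other cells, joined within each library, with 1 panel per organ and 5 mice per panel. Every line goes up from stem-called to other cells in the small intestine panels, and 4 of 5 go down in the colon panel.

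The first comparison asks how the genes differ between stem-called and other cells of the same library. In the small intestine the stem-called cells had the lower summed level in all 10 libraries, by a small amount: the ratio of stem-called to other cells was 0.881 to 0.980 in the proximal and 0.893 to 0.955 in the distal segment. In the proximal segment 20 of 39 genes were lower and 0 higher (edgeR, library as a block, adjusted p under 0.05), where 20.8% of all tested genes were lower and 15.9% higher. In the distal segment 17 were lower and 0 higher, where 23.7% of all tested genes were lower and 20.3% higher. In the colon the ratio of summed levels was 0.932 to 1.26, and 5 genes were higher and 2 lower, where 20.8% of all tested genes were higher and 23.3% lower. The median log2 difference of the 39 genes was -0.18, -0.15 and 0.01 in the proximal segment, distal segment and colon, and that of all tested genes was within 0.01 of 0 in each.

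The counts depend on how the sums were scaled. With total UMIs as the scale, an alternative added after seeing the data, 11 genes were lower and 0 higher in the proximal segment. The counts were 10 and 0 in the distal segment, and 1 lower and 8 higher in the colon. The medians moved as well, to -0.117, -0.112 and 0.070 for the 39 genes in the proximal segment, distal segment and colon. Those of all tested genes were then 0.045, 0.025 and 0.045. With cells thinned to 3000 UMIs, 7, 10 and 1 genes were lower and 0 higher in each organ. That alternative left out the 961 cells under 3000 UMIs and made the stem call anew on the thinned counts. Only 2215 cells then kept the call and the rest counted as other cells, so both groups differ from those above. In the colon 2 genes were higher when the sum of 27 cells was left out, and 1 was higher and 4 lower when immune-marker cells, those with at least 2 UMIs over the immune markers, were left out. DESeq2 called 2 higher and 4 lower there.

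Single mice also bore on these counts. Leaving out control mouse 1 gave 10 lower genes in the proximal and 9 in the distal segment, and leaving out control mouse 2 gave 13 and 8. The distal count was 7 when high fat mouse 3 was left out. With both mice numbered 1 left out, an alternative added after seeing the data, 12 genes were lower in each segment. In the colon 2 genes were higher when control mouse 2 or any of the high fat mice was left out, 0 were lower when control mouse 2 was, and 1 was lower when high fat mouse 3 was.

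Other cell types moved with the stem call. The summed level of 10 absorptive markers was 1578 to 2932 CPM in stem-called and 2998 to 5341 CPM in other cells of the proximal segment, and 680.0 to 1152 against 932 to 2401 CPM in the distal segment, with Aqp8 at 0 in every distal library. The 5 goblet cell markers in the table summed to 323 to 1565 against 2552 to 3078 CPM and to 1262 to 4017 against 5968 to 17293 CPM in the same organs. In the colon the absorptive markers overlapped, at 401 to 663 against 347 to 1942 CPM, with Apoa1, Apoa4 and Fabp1 at 0, and the goblet markers did not, at 500.2 to 1107 against 2312 to 7047 CPM. The immune markers, 11 of 12 in the table, summed to 25.8 to 81.2 against 34.0 to 277 CPM in the proximal segment, 34.2 to 88.7 against 134 to 582 CPM in the distal segment, and 40.6 to 162 against 365 to 3856 CPM in the colon. The summed level of the 8 markers of dividing cells was higher in stem-called cells in 5, 4 and 4 of 5 libraries. The 6 Paneth cell markers were higher in stem-called cells in 2, 5 and 0 of 5 libraries, at 1897 to 16365 against 654 to 6838 CPM in the distal segment. The 6 enteroendocrine markers were lower in each library, and the 5 tuft cell markers in the table were higher in 2, 2 and 0 of 5. The part of these cells in the proteasome differences was not tested, except that immune-marker cells were left out as an alternative.

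**Figure D2:**
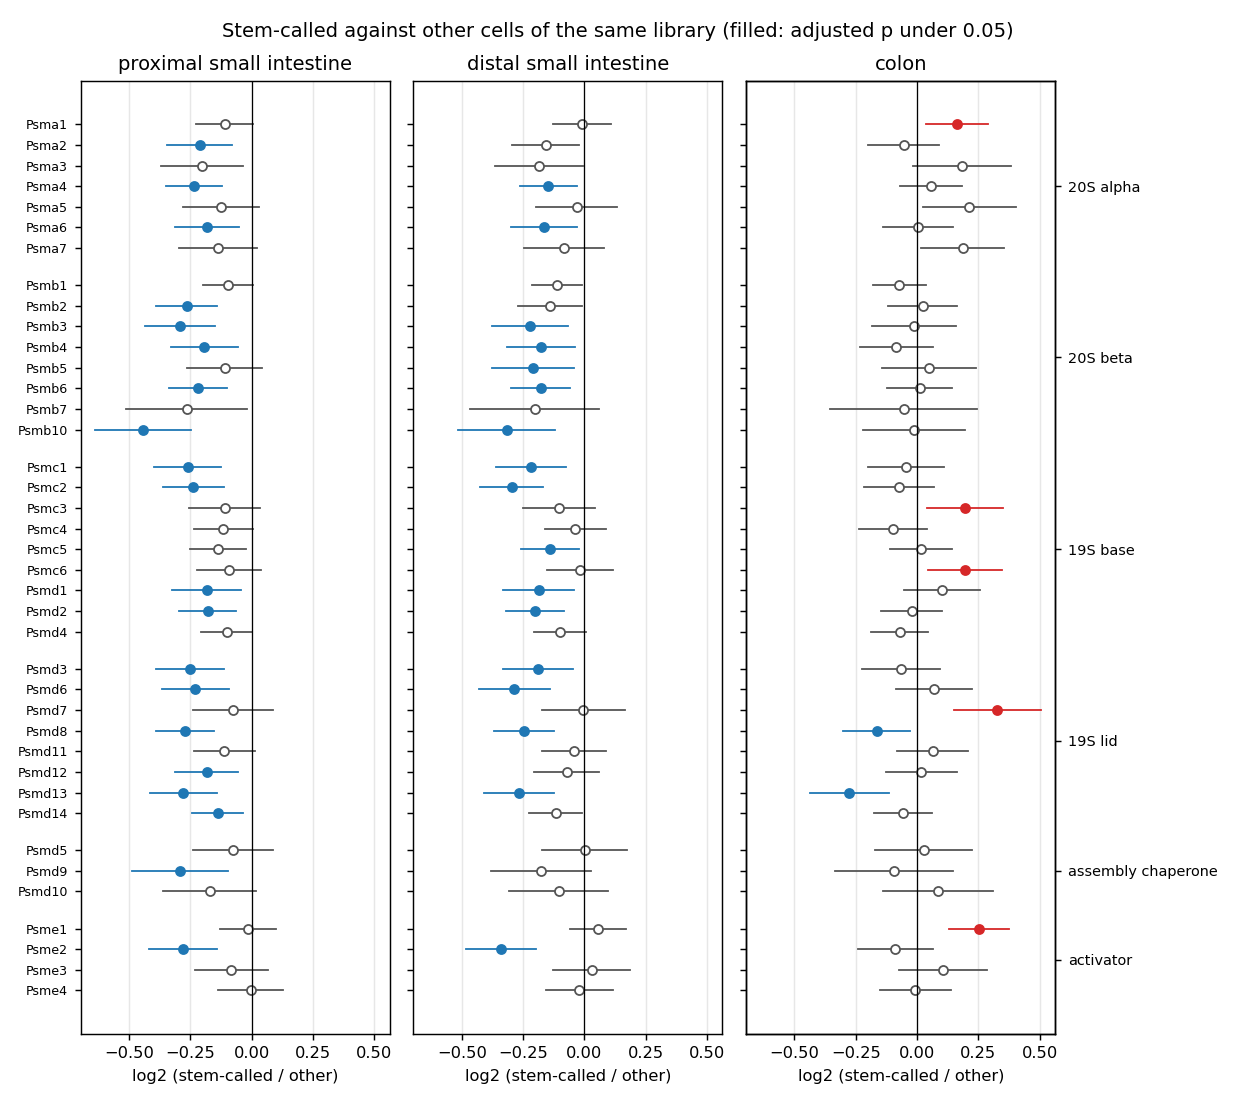
Log2 difference between stem-called and other cells (horizontal axis) for each of the 39 genes, by subunit group and organ, with 95% confidence intervals from edgeR. Filled points passed an adjusted p of 0.05, blue lower and red higher: 20 and 17 blue points in the small intestine panels, and 5 red and 2 blue in the colon panel.

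Among the alpha subunits, which form the outer rings of the core, 3 of 7 were lower in the proximal segment (Psma4, -0.23, Psma2, -0.21, and Psma6, -0.18 on the log2 scale) and 2 in the distal segment (Psma4, -0.15, and Psma6, -0.17). In the colon Psma1 was higher by 0.16 (SE 0.06, edgeR adjusted p = 0.035). The summed level of the alpha genes was lower in stem-called cells in 10 of 10 small intestine libraries and higher in 4 of 5 colon libraries.

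Among the beta subunits 5 of 8 were lower in each part of the small intestine and 0 in the colon. Psmb10, the interferon-inducible form of the trypsin-like subunit, had the largest difference of the 39 genes in the proximal segment. It stood at 223 and 237 CPM in stem-called cells of control mice 1 and 2 and at 220.3, 244 and 180.4 CPM in high fat mice 1 to 3. Other cells of the same libraries had 322 and 304 against 235, 326 and 249 CPM. Each library was lower in stem-called cells, although the 2 ranges overlapped across mice, and the log2 difference was -0.44 (SE 0.09, edgeR adjusted p = 0.0010). It was -0.32 in the distal segment (SE 0.10, edgeR adjusted p = 0.011) and -0.01 in the colon (SE 0.10, edgeR adjusted p = 0.94).

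The constitutive catalytic subunits were less uniform. Psmb6, the caspase-like protease, was lower in both segments (-0.22 and -0.18) and stood at 0.01 in the colon. Psmb5, the chymotrypsin-like protease and the target of bortezomib, passed the test in the distal segment (-0.21, SE 0.08) and not in the proximal one (-0.11, SE 0.07) or the colon (0.05). Psmb7, the trypsin-like form that Psmb10 replaces, did not pass in any organ (-0.26, SE 0.12, -0.20, SE 0.13, and -0.06, SE 0.14). Its stem-called level was 3.11 to 44.1 CPM over the 15 libraries. The structural beta subunits Psmb3 and Psmb4 were lower in both (-0.29 and -0.22 for Psmb3, -0.19 and -0.18 for Psmb4), and Psmb2 was lower in the proximal segment (-0.26).

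In the base of the 19S cap 4 of 9 genes were lower in the proximal and 5 in the distal segment. Of the 6 ATPases that unfold the substrate, Psmc1 (-0.26 and -0.22) and Psmc2 (-0.24 and -0.30) were lower in both organs and Psmc5 in the distal one (-0.14, SE 0.06, edgeR adjusted p = 0.048). In the colon Psmc3 (0.19) and Psmc6 (0.20) were higher, and Psmc3 had a log2 difference of -0.034 there once cells were thinned to 3000 UMIs. The scaffold subunits Psmd1 and Psmd2, to which ubiquitin receptors and shuttles dock, were lower in both parts of the small intestine (-0.18 and -0.19 for Psmd1, -0.18 and -0.20 for Psmd2). The ubiquitin receptor Psmd4 did not pass in any organ (-0.10, -0.10 and -0.07, each with an SE of 0.05 or 0.06).

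In the lid 6 of 8 genes were lower in the proximal and 4 of 8 in the distal segment. Psmd8, a subunit of the lid, stood at 146 and 129 CPM in stem-called cells of the 2 control mice and at 140.4, 140.3 and 133 CPM in the 3 high fat mice in the proximal segment. Other cells had 171 and 155 against 149.9, 169 and 149 CPM, so that the 2 populations did not overlap there. How many of all tested genes separate in this way was not counted. Its log2 difference was -0.27 (SE 0.06, edgeR adjusted p = 0.0010), then -0.25 in the distal segment (edgeR adjusted p = 0.0023) and -0.16 in the colon (edgeR adjusted p = 0.047). Psmd13, whose exons overlap those of Sirt3, was lower in all 3 organs too (-0.28, -0.27 and -0.28). Psmd3 (-0.25 and -0.19) and Psmd6 (-0.23 and -0.28) were lower in both parts of the small intestine, and Psmd12 (-0.18) and the deubiquitinase Psmd14 (-0.14) in the proximal segment. Psmd14 did not pass in the distal segment (-0.12) or the colon (-0.06). Psmd11, whose level is known to be high in human embryonic stem cells, did not pass in any organ (-0.11, -0.04 and 0.06).

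Psmd7, the partner of Psmd14 in the lid, went the other way in the colon. Its stem-called level there was 201 and 252 CPM in control mice 1 and 2 and 215, 249 and 222 CPM in high fat mice 1 to 3. Other colon cells had 194 and 179 against 171, 123 and 178 CPM. Every library was higher in stem-called cells and the 2 ranges did not overlap, with a log2 difference of 0.33 (SE 0.09, edgeR adjusted p = 0.0044). Of the 39 genes, 6 were higher in stem-called cells of every colon library. Neither pattern was counted over all tested genes. In the small intestine Psmd7 did not pass (-0.08 and -0.00).

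The activators, which open the core without the 19S cap, split by member. Psme2, the beta subunit of the PA28 ring, was lower in the proximal (-0.28, SE 0.07, edgeR adjusted p = 0.0024) and distal segment (-0.34, SE 0.07, edgeR adjusted p = 0.00056). Reads of Psme2 and of its near copy Psme2b may be split in the count table, so its values are uncertain. In the colon it did not pass (-0.09). Psme1, the alpha subunit of the same ring, did not pass in either (-0.02 and 0.06) and was higher in the colon (0.25, SE 0.06, edgeR adjusted p = 0.0017). Psme3, the nuclear PA28 gamma, and Psme4, PA200, did not pass in any organ, with log2 differences of -0.08, 0.03 and 0.11 for Psme3 and of -0.00, -0.02 and -0.01 for Psme4. Of the assembly chaperones of the base, Psmd9 was lower in the proximal segment (-0.29), and Psmd5 and Psmd10 did not pass in any organ.

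Of 31 other genes of the pathway, 2 were higher and 7 lower in stem-called cells of the proximal segment, 4 and 10 in the distal segment, and 7 and 3 in the colon. Of all tested genes, 15.9% were higher and 20.8% lower in the proximal segment, 20.3% and 23.7% in the distal segment, and 20.8% and 23.3% in the colon, so that the counts of lower genes in the proximal segment and of higher genes in the colon lie near the background. The dedicated chaperones of core assembly stood among the higher genes. Psmg2 had log2 differences of 0.30, 0.46 and 0.72 in the proximal segment, distal segment and colon (edgeR adjusted p = 0.0051, 0.00020 and 2.5e-05), and Psmg4 of 0.52, 0.34 and 0.49 (edgeR adjusted p = 0.0015, 0.034 and 0.010). Psmg1 (0.33) and Psmg3 (0.36) were higher in the colon. In contrast Pomp, the maturation factor of the core, was lower in both parts of the small intestine (-0.20 in each), as were the immunoproteasome genes Psmb8 (-0.38 and -0.21) and Psmb9 (-0.52 and -0.39).

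The Psmg2 values show the pattern. Its stem-called level in the colon was 28.4 and 30.8 CPM in the control mice and 44.8, 34.2 and 35.7 CPM in the high fat mice. Other colon cells had 18.4 and 18.7 against 22.7, 17.6 and 21.1 CPM. The 2 populations did not overlap in the colon, a separation that was not counted over all tested genes.

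The regulators of the pathway also differed. Nfe2l2, which encodes NRF2, was lower in stem-called cells of the proximal (-0.63, edgeR adjusted p = 1.5e-05) and distal segment (-0.42, edgeR adjusted p = 0.00080) and did not pass in the colon (0.19, edgeR adjusted p = 0.11). Nfe2l1, which encodes NRF1, passed in the distal segment (-0.36) and the colon (-0.18), and Ngly1, the glycanase that activates NRF1, was lower in all 3 organs (-0.36, -0.34 and -0.77). Vcp, the ATPase that extracts ubiquitinated proteins, was lower in both parts of the small intestine (-0.23 and -0.26), and the shuttle Ubqln1 was higher in the distal segment (0.30) and the colon (0.27). Uchl5, a deubiquitinase of the cap, was higher in the colon (0.45).

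The difference between the organs was then tested itself. The test compared the log2 difference of stem-called minus other cells with its sign. This signed difference was higher in the colon than in the mean of both parts of the small intestine for 3 of 39 genes. They were Psmd6 (0.33, edgeR adjusted p = 0.034), Psmd7 (0.37, edgeR adjusted p = 0.038) and Psma4 (0.25, edgeR adjusted p = 0.049), where 3.04% of all tested genes were higher. It was lower for 0, where 3.28% of all tested genes were. Higher does not mean larger in size: Psmd6 and Psma4 were lower in stem-called cells of the small intestine and did not pass in the colon. The median of the 39 genes was 0.19 and that of all tested genes 0.01. Psme1 (0.23, edgeR adjusted p = 0.052), Psmd1 (0.29, edgeR adjusted p = 0.058) and Psmb10 (0.37, edgeR adjusted p = 0.075) missed the threshold. So did Psmb5 (0.21), Psmb6 (0.21), Psmb7 (0.18), Psme2 (0.22), Psme3 (0.13), Psme4 (0.01), Psmd4 (0.03), Psmd11 (0.14) and Psmd14 (0.07). Between the distal and proximal segment 0 genes differed, where 0.546% of all tested genes did. Leaving out any one mouse ended the call of Psmd6 (edgeR adjusted p = 0.068 to 0.16), and leaving out control mouse 2 or any of the high fat mice ended all 3. So did leaving out immune-marker cells, thinning, or testing with no filter on low counts, each with 0 genes, while DESeq2 called 12.

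The next comparison asks how stem-called cells of the 3 organs differ. Few of the 39 genes passed the test, and 0 did between the distal and proximal segments, where 5.46% of all tested genes did. Against the proximal segment the colon had 1 gene higher and 1 lower, where 10.9% and 7.25% of all tested genes were. Against the distal segment it had 1 higher and 0 lower, where 7.06% and 5.72% were. Both comparisons use the same colon sums. The levels of all 5 colon libraries lay above all 5 proximal ones for Psmb10 and Psmd10 and below them for Psme3, where 8.32% and 6.23% of all tested genes did so, and above all 5 distal ones for Psmc3, where 5.65% did.

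Psmb10 (chr8:105935735-105938444, minus strand, mm10, protein coding) was the gene that was higher in the colon. In stem-called cells of the colon it stood at 342 and 246 CPM in control mice 1 and 2 and at 424, 367 and 282 CPM in high fat mice 1 to 3 (332 ± 70.0, SD, n = 5). In the proximal segment the mean was 221 ± 24.6 CPM (SD, n = 5, range 180.4 to 244) and in the distal segment 211 ± 28.2 CPM (SD, n = 5, range 187 to 257). The colon libraries lay above all proximal ones, and control mouse 2 overlapped the distal ones. The log2 difference was 0.53 against the proximal (SE 0.15, edgeR adjusted p = 0.024) and 0.59 against the distal segment (SE 0.15, edgeR adjusted p = 0.019). Psmb8 (1.48 and 1.80) and Psmb9 (0.96 and 1.51), the other 2 immunoproteasome proteases, were higher in the colon as well, and the constitutive Psmb5 (0.14 and 0.20), Psmb6 (-0.10 and -0.03) and Psmb7 (0.14 and 0.11) did not pass. Among the activators, Psme1 (0.49 and 0.48), Psme2 (0.38 and 0.46) and Psme4 (0.18 and 0.18) did not pass, nor did Psmd4 (-0.00 and 0.01), Psmd11 (-0.00 and 0.06) and Psmd14 (-0.18 and -0.12) of the cap.

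Lymphocytes are known to carry the immunoproteasome, so cells with immune markers were counted beside this result. Immune-marker cells made up 5.45%, 12% and 16.8% of stem-called cells in the proximal segment, distal segment and colon. The marker rule has no correction for depth, so these are shares of cells with such UMIs and not shares of lymphocytes. All 11 immune markers in the table were seen in at least 1 stem-called sum of each organ, and their summed level, given above, overlapped between the organs. Psmb10 was higher in immune-marker cells than in the other cells of the library in 1 of 5 proximal, 2 of 5 distal and 1 of 5 colon libraries. Psmb8 was higher in them in 5, 5 and 5 of 5 libraries and Psmb9 in 4, 5 and 5. The part of immune cells in the colon levels of Psmb8 and Psmb9 was not tested. Without immune-marker cells the log2 difference of Psmb10 was 0.54 against the proximal (edgeR adjusted p = 0.028) and 0.60 against the distal segment (edgeR adjusted p = 0.021).

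Psme3 (chr11:101316213-101323537, plus strand, protein coding) was the gene that was lower in the colon. Its stem-called level was 122 and 128 CPM in the control and 118, 145 and 137 CPM in the high fat mice in the proximal segment, and 66.8 and 90.1 against 104, 96.4 and 102 CPM in the colon. The 2 organs did not overlap, and the log2 difference was -0.55 (SE 0.14, edgeR adjusted p = 0.013). The distal segment had a mean between them, 105 ± 19.8 CPM (SD, n = 5), and did not pass against either (edgeR adjusted p = 0.45 against the proximal segment and 0.29 for the colon against the distal). Other cells had the same order, with means of 132, 101 and 79.3 CPM.

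**Figure D3:**
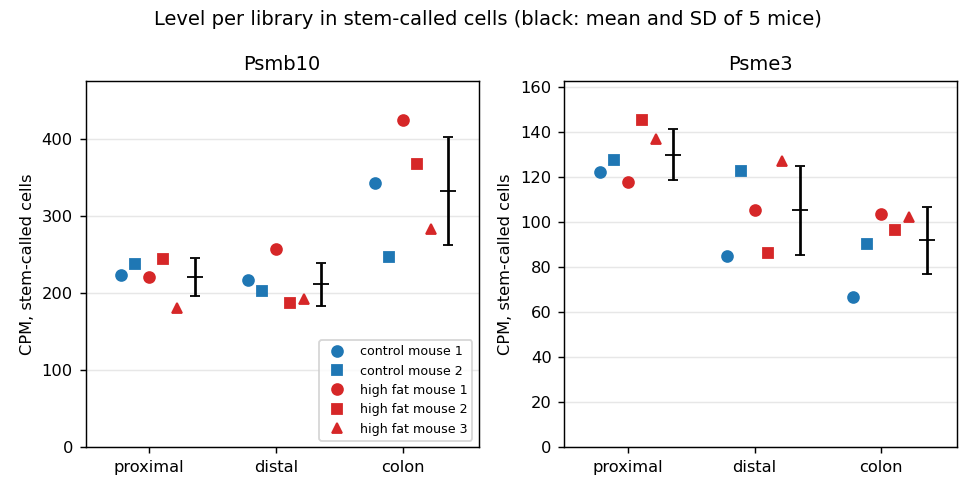
Level of Psmb10 and Psme3 in stem-called cells (vertical axis, CPM) in each library by organ, with marker shape for the mouse number, colour for the diet, and the mean and SD of 5 mice in black. Psmb10 is highest in the colon and Psme3 highest in the proximal segment.

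The 3 organs came from the same mice, and with the mouse as a block more genes passed. Against the proximal segment the colon then had 4 higher and 1 lower. The higher ones were Psmb10 (0.52, edgeR adjusted p = 0.0015), Psme1 (0.43, edgeR adjusted p = 0.0067), Psmd7 (0.36, edgeR adjusted p = 0.023) and Psmd10 (0.44, edgeR adjusted p = 0.028). The lower one was Psme3 (-0.56, edgeR adjusted p = 0.00085). Against the distal segment 3 were higher, Psmb10 (0.57, edgeR adjusted p = 0.0010), Psmd7 (0.48, edgeR adjusted p = 0.0063) and Psme1 (0.45, edgeR adjusted p = 0.0073). Leaving out single mice and thinning were run only without the block, so how the calls with the block depend on them was not tested. Without the block, the Psmb10 call against the proximal segment was lost without control mouse 1 (0.35, edgeR adjusted p = 0.31), high fat mouse 1 (0.47, edgeR adjusted p = 0.090) or high fat mouse 2 (0.54, edgeR adjusted p = 0.075), and with cells thinned to 3000 UMIs (0.54, edgeR adjusted p = 0.13). The call against the distal segment was kept without high fat mouse 3 and lost without any other 1 mouse. The Psme3 call was lost without control mouse 1 (-0.50, edgeR adjusted p = 0.057) or high fat mouse 2 (-0.53, edgeR adjusted p = 0.052).

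A few genes varied widely between mice of the same organ. The median coefficient of variation of the 39 genes between the 5 mice was 13.8%, 14.0% and 14.1% in the proximal segment, distal segment and colon. It was 34.5%, 54.2% and 52.7% for Psmb5, 29.8%, 36.5% and 45.2% for Psme1, and 33.7%, 29.7% and 44.3% for Psme2, the genes that exceeded 25% in all 3 organs. Psme1 (chr14:55578123-55581529, plus strand), whose exons overlap those of Emc9 so that reads may be shared, separated the mice by the number in their title. In the 6 libraries of control mouse 1 and high fat mouse 1 its stem-called level was 302 to 560 CPM, and in the 9 libraries of the other mice 162 to 269 CPM.

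Psmc2 showed the same order, at 143 to 185 against 99.5 to 140.0 CPM, and Psmd2 the reverse, at 179 to 209 against 210 to 261 CPM. These 3 were the genes of the 39 whose stem-called levels did not overlap between the 2 sets of libraries, where 3.19% of all tested genes did not. Psmb5 was at 13.0 to 39.2 against 36.1 to 84.3 CPM, with an overlap at the edge. In other cells Psme1, Psmc2, Psmb5 and Psma3 did not overlap, where 4.39% of all tested genes did not. The labels give the number as a name within each diet and tie nothing else to it, and this split was chosen after the values were seen, so no test is given.

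**Figure D4:**
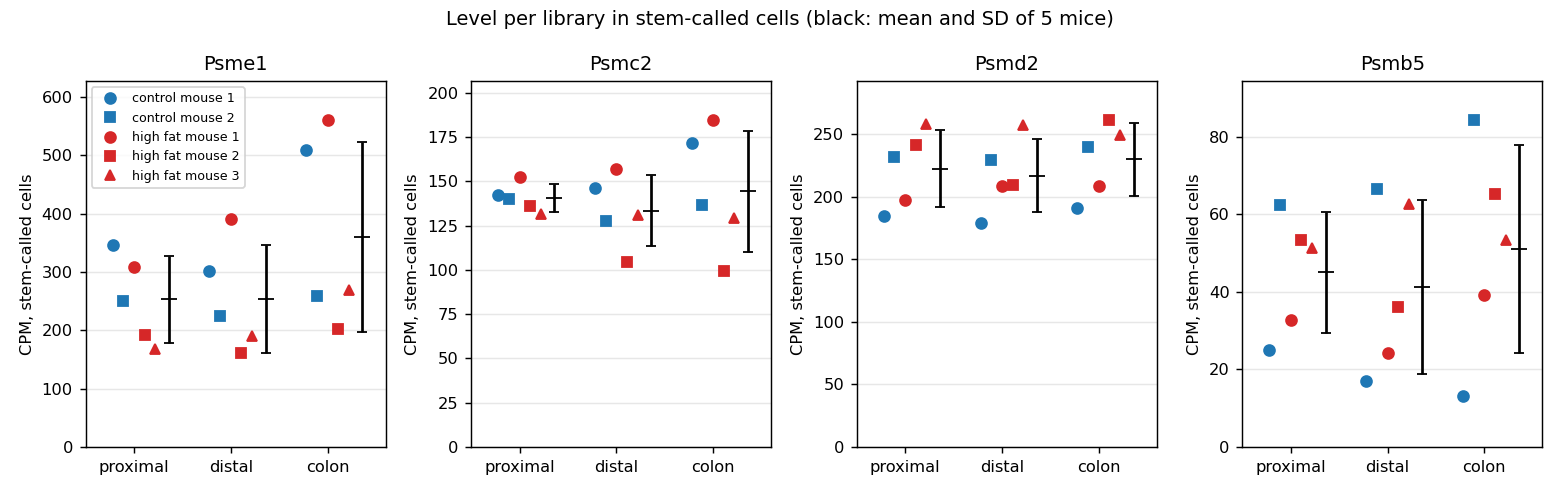
Level of Psme1, Psmc2, Psmd2 and Psmb5 in stem-called cells (vertical axes, CPM) in each library by organ, with circles for the mice numbered 1, squares and triangles for the other mice, colour for the diet, and the mean and SD of 5 mice in black. Circles lie above the other marks for Psme1 and Psmc2 and below them for Psmd2.

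The question of the study is what the high fat diet changes. In stem-called cells 0 of 39 genes differed between the diets in each organ (edgeR, adjusted p under 0.05), where 0.122%, 0.0081% and 0.0% of all tested genes did in the proximal segment, distal segment and colon. DESeq2 gave 0 as well, and 0 genes had an unadjusted p under 0.05 with edgeR, where 3.72%, 2.67% and 2.54% of all tested genes did. The median log2 difference, high fat minus control, was 0.04, -0.00 and 0.04. The lowest and highest values were -0.37 for Psme1 and 0.21 for Psma2 in the proximal segment, -0.33 for Psmb3 and 0.25 for Psma1 in the distal, and -0.36 for Psmb7 and 0.39 for Psma2 in the colon.

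A missed threshold does not show that the diets act alike, and the intervals give the size that these mice can bound. The 95% confidence interval lay within 2-fold in either direction for 36, 34 and 34 of 39 genes and within 1.5-fold for 26, 23 and 16. For the catalytic Psmb5 it was wide, from -1.24 to 1.39 in the proximal segment on the log2 scale, with levels of 25.1 and 62.5 CPM in the control mice and 32.6, 53.4 and 51.4 CPM in the high fat mice. For Psmb6 it was -0.60 to 0.35, for Psmb7 -0.95 to 0.78 and for Psmb10 -0.52 to 0.39 in the same organ. For the lid and base subunits Psmd4, Psmd11 and Psmd14 it was -0.46 to 0.43, -0.27 to 0.52 and -0.25 to 0.49. For the activators Psme1, Psme2, Psme3 and Psme4 it was -1.28 to 0.53, -1.09 to 0.70, -0.29 to 0.54 and -0.32 to 0.52. In the distal segment and the colon the log2 differences were -0.11 and 0.03 for Psmb5, -0.06 and -0.16 for Psmb6, -0.32 and -0.36 for Psmb7, and -0.01 and 0.31 for Psmb10. They were -0.13 and -0.12 for Psme1, -0.13 and 0.11 for Psme2, and 0.00 and 0.07 for Psme4. The 6 ATPases had a median log2 difference of 0.02, -0.05 and 0.00 in the 3 organs.

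**Figure D5:**
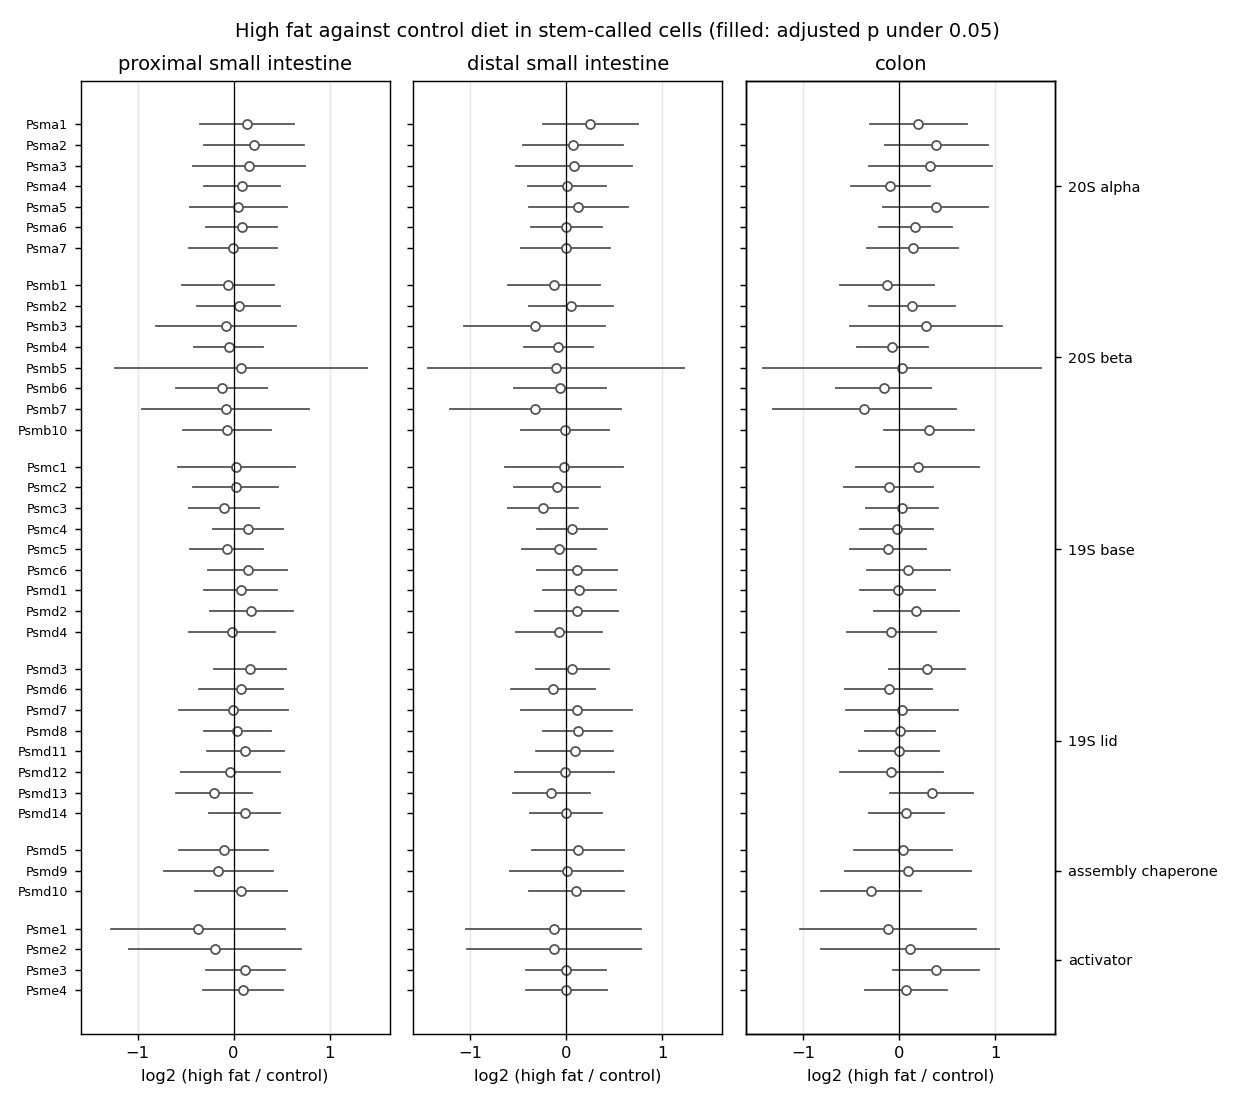
Log2 difference between high fat and control mice in stem-called cells (horizontal axis) for each of the 39 genes, by subunit group and organ, with 95% confidence intervals from edgeR. All points are open, since 0 genes passed an adjusted p of 0.05, and the widest intervals are those of Psmb5.

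A few genes kept the diets apart in every mouse, a pattern that was not tested in itself. In the colon Psma1, Psmd3, Psmd13 and Psme3 were higher in all 3 high fat mice than in both control mice. Of all tested genes, 5.87% were higher there in this way, and 0 genes of the set were lower. Psme3 there had a log2 difference of 0.38 (SE 0.21, edgeR adjusted p = 1.0). In the distal segment Psmc3 was lower in all 3 high fat mice, where 5.15% of all tested genes were, and 0 genes of the set were higher. In the proximal segment 0 genes kept apart in either direction, where 17.1% of all tested genes did. The shares for the colon and the distal segment cover only the direction in which genes of the set were found. That for the proximal segment covers both directions.

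In other cells 0 of 39 genes differed between the diets in each organ, where 0.0839%, 0.00699% and 0.0% of all tested genes did in the order proximal, distal and colon. The diet difference in stem-called cells set against that in other cells gave 0 genes in each organ, where 0.0% of all tested genes passed. At an unadjusted p under 0.05, which 2.17%, 2.06% and 5.01% of all tested genes reached in the proximal segment, distal segment and colon, that test gave 1 gene in the proximal segment (Psmd5, -0.40), 0 in the distal and 6 in the colon: Psmb10 (0.45), Psme3 (0.43), Psmd13 (0.37), Psma7 (0.34), Psmc3 (0.32) and Psme1 (0.24). The colon holds the smallest stem-called sum, that of high fat mouse 2.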

How the data were processed

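The deposited table holds a raw count of UMIs per gene and cell for 15 libraries, with the build mm10 per the submitters' processing notes. The aligner, counting tool and annotation are not given in the sources used here. The authors' cell table gives diet, organ, mouse and stem call, in which the control animal numbered 3 was matched by elimination to the one the titles number 2. No filter on cells was added. Scrublet (scanpy 1.11.5) called 242 doublets (1.28%), which were kept. Counts were summed over stem-called and other cells of each library (30 sums, Python 3.11.15) and tested with edgeR 4.0.16 in R 4.3.3 (quasi-likelihood F test, TMM, filterByExpr, Benjamini-Hochberg over all genes tested, threshold 0.05). All 39 genes passed the filter in each fit. Stem-called and other cells were compared with the library as a block, since both come from the same library. The organs come from the same mice. The labels tie nothing to a mouse number shared between diets. The 5 mice are the replicates, and 17 contrasts were tested. The fits were checked on simulated counts with planted changes larger than those given for the 39 genes and no library effect. That check does not bear on small differences or on the pairing within libraries.

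Named were the members called in a comparison, the catalytic subunits Psmb5, Psmb6 and Psmb7, Psmb10, Psme1 to Psme4, the ATPases as a group, and Psmd4, Psmd11 and Psmd14. Members, pathway list and marker lists were chosen with earlier results of these data known. CPM is the count per 1000000 UMIs of a sum. The libraries count the 3′ end of transcripts with no length correction, so levels of different genes were not compared. Gene positions are from GENCODE vM21 (GRCm38). Exons of 10 of the 39 genes overlap those of another gene, among them Psma4, Psmc3, Psmd1, Psmd3, Psmd13 and Psme1, and their reads may be shared. Immune-marker cells (2636, 13.9%) had at least 2 UMIs over the immune markers. Alternatives were DESeq2 1.42.0, RLE scaling, no filter, no block or a mouse block, thinning to 3000 UMIs, removal of doublets, of immune-marker cells, of sums under 50 cells and of each mouse in turn. Scaling by total UMIs and leaving out both mice numbered 1 were added after seeing the data.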

Additional observations from a re-analysis of the deposited data

Results flagged for a closer look

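The difference between stem-called and other cells depended on the organ, by the test of that difference in edgeR, for 7 genes. With its sign, the log2 difference was higher in the colon than in the small intestine by 0.33 for the lid subunit Psmd6. It was higher by 0.37 for the lid subunit Psmd7 and by 0.25 for the alpha subunit Psma4. None of these 3 calls held without immune-marker cells, and that of Psmd6 was lost when any one mouse was left out. Among other genes of the pathway the signed difference was higher by 0.71 for Nfe2l2, which encodes NRF2, and by 0.22 for the extraction ATPase Vcp. For the immunoproteasome genes Psmb8 and Psmb9 it was higher by 0.31 and 0.36. These other genes were lower in stem-called cells of both parts of the small intestine, so higher here does not mean a larger difference in the colon.

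Psmd1, a scaffold of the 19S base, was higher in stem-called cells in 5 of 5 colon libraries and lower in 5 of 5 libraries of each part of the small intestine. Its stem-called level in the colon was 249.5 and 233 CPM in the control and 240.4, 243 and 220.2 CPM in the high fat mice, against 243 and 205 and 220.0, 154 and 216 CPM in other cells. Of the 39 genes, 6 were higher in all colon libraries, and 20 and 17 were lower in all proximal and distal ones. The pattern of directions of Psmd1 was not tested in itself or counted over all tested genes. Its test of the signed log2 difference between the organs missed the threshold (0.29, edgeR adjusted p = 0.058).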

How the results depend on the processing

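Diet comparisons gave 0 genes under every alternative run, including a replicate block by the mouse number in the titles or in the cell table (0 genes each). In the proximal segment, distal segment and colon the deviations of the mice numbered 1 of the 2 diets correlated at 0.33, 0.35 and 0.40. Those of control mouse 2 correlated at 0.13, 0.06 and 0.03 with high fat mouse 2, its match by title, and at 0.30, 0.33 and 0.36 with high fat mouse 3, its match in the cell table. Each deviation is from the mean of its diet and organ. With 2 control mice, that of control mouse 2 is therefore that of control mouse 1 with the sign turned. The values of control mouse 2 are fixed by those of control mouse 1 and cannot decide which numbers match. Of 50 single-gene calls, 47 were kept with DESeq2, 46 with RLE scaling, 49 without doublets, 45 without sums under 50 cells, 42 without immune-marker cells, 33 with total UMIs as the scale, 31 without the filter, 26 without both mice numbered 1, 25 to 37 without any one mouse, and 17 after thinning. Thinning reversed Psmc3 in the colon (-0.034). Without the library block, which pairs the 2 sums of a library, 0 of 47 calls of the stem-call comparisons were kept. The replicate block by mouse raised the genes higher in the colon from 1 to 4 against the proximal and to 3 against the distal segment. The cause of these changes was not tested.

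Genes lower in stem-called cells of the proximal segment (20) numbered 0 with no library block, 7 after thinning, 11 by total UMIs, 12 without both mice numbered 1, and 10 to 21 without any one mouse. In the distal segment (17) they numbered 8 with no filter, 0 with no library block, 10 after thinning, 10 by total UMIs and 7 to 16 without any one mouse. In the colon the higher genes (5) numbered 2 with RLE, 3 with no filter, 2 with DESeq2, 0 with no library block and 0 after thinning. They numbered 1 without immune-marker cells, 2 without sums under 50 cells, 8 by total UMIs, 3 without both mice numbered 1 and 2 to 7 without any one mouse. The lower genes there (2) numbered 1 with no filter, 4 with DESeq2, 0 with no library block, 1 after thinning, 4 without immune-marker cells, 1 by total UMIs and 0 to 2 without any one mouse.

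For the colon minus small intestine difference (3 higher) the counts were 0 with no filter, 12 with DESeq2, 0 with no library block and 0 after thinning. They were 0 without immune-marker cells, 5 without doublets, 7 by total UMIs and 0 to 3 without any one mouse. For the colon minus proximal comparison of stem-called cells, higher genes numbered 0 after thinning, 0 without both mice numbered 1 and 0 to 1 without any one mouse, and lower genes 0 and 0 to 1 under the last 2. For colon minus distal, higher genes numbered 0 and 0 to 1 under the same 2. The log2 ratio of the summed level between the diets in the proximal segment was -0.145 within the deeper mice and 0.124 within the shallower mice.

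With 2 control mice the diet comparison bounds large changes only. The colon of high fat mouse 2 gave 27 stem-called cells, which limits the colon comparisons. Thinning left 2215 stem-called cells, since the call itself needs a UMI. Cells that lost the call were counted as other cells, so its fits have less depth and compare differently drawn groups.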
